A study of Mus musculus with 30 samples.

Results

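The cytosolic ribosomal protein genes encode the proteins of the large (Rpl) and small (Rps) subunits of the ribosome outside mitochondria. They were taken by gene symbol: names made of Rpl or Rps and a number, with at most a closing a, x, y, l or digit, plus Rplp0, Rplp1, Rplp2 and Rpsa. Pseudogene names ending in -ps and the S6 kinase genes were left out, and the transcript with the highest mean was kept for each symbol. This gave 86 of 24761 gene symbols, 53 of the large and 33 of the small subunit. Their transcript levels were read in 30 libraries of macrophages that M-CSF had produced from wild-type C57Bl/6 mouse bone marrow. The 9 MPH libraries came from cultures M2, M3 and M4, given 1 µM metaproterenol hemisulfate, a β2 adrenergic agonist, for 2 h. The 21 DMSO libraries came from cultures D3 to D6, UKD, r1 and r2, given the vehicle for 2 h. Each culture gave 1 library after 0, 1 and 2 h of lipopolysaccharide (LPS, labelled 100 ng/µL). The labels do not say whether the cultures came from separate mice, so no p-value here is known to measure the spread between mice. Fits without a term for each culture count the libraries of a culture as independent, and their p-values mix the spread between and within cultures. With such a term, called the culture block below, p-values measure the spread within cultures.

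Ribosomal proteins join ribosomal RNA in the nucleolus to form the 2 subunits, and a dividing or growing cell spends much of its transcription on them. In mammals most of their mRNAs begin at a C that is followed by a run of pyrimidines, the 5′ terminal oligopyrimidine (TOP) motif. Through this motif the kinase mTORC1 and the RNA-binding protein Larp1 set how fast the mRNAs are translated and how stable they are. The mRNAs are abundant and long-lived, and several serve as reference genes in macrophage work.

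The start regions of 11 genes whose values recur below are shown for this reason, from RefSeq's table for the mouse build GRCm38.p6, 20 bases before to 30 after the annotated start. The deposited values rest on another build, mm9, so these coordinates are not those of the files. Capitals mark a run of at least 8 bases, all C or T, that begins with C on the gene's own strand. The genes are Rpl35, Rplp2, Rpl28, Rpl15 and Rpl41, among those that varied most between cultures, then Rpl11, Rps3 and Rpl22, which were called lower after LPS on the deposited scale, then Rpl22l1, the paralog of Rpl22, and the pair Rps27 and Rps27l.
Rpl35 chr2:39005102-39005151 minus strand: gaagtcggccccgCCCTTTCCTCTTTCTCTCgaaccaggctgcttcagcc
Rplp2 chr7:141447631-141447680 plus strand: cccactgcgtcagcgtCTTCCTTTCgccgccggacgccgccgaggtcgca
Rpl28 chr7:4792945-4792994 plus strand: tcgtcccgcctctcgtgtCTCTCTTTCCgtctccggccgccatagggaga
Rpl15 chr14:18270957-18271006 minus strand: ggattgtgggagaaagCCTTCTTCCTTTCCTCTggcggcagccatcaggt
Rpl41 chr10:128549139-128549188 minus strand: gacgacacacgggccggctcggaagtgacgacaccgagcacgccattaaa
Rpl11 chr4:136053364-136053413 minus strand: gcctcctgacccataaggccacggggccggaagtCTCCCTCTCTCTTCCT
Rps3 chr7:99483680-99483729 minus strand: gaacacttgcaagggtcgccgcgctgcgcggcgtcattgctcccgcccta
Rpl22 (first start) chr4:152324416-152324465 plus strand: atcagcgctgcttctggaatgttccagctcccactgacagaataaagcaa
Rpl22 (second start) chr4:152325706-152325755 plus strand: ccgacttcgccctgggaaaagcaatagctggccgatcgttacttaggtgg
Rpl22l1 chr3:28805488-28805537 plus strand: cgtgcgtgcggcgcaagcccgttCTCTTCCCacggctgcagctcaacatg
Rps27 chr3:90213619-90213668 minus strand: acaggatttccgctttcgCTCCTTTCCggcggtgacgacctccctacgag
Rps27l (first start) chr9:66946066-66946115 plus strand: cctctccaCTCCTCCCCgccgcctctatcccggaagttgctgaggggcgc
Rps27l (second start) chr9:66946393-66946442 plus strand: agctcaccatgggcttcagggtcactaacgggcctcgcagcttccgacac
Such a run stood in 35 of the 77 start windows of the 65 ribosomal protein genes found in the table, or 45.5%, against 14.9% of all 32851 windows. On the other strand it stood in 7.79% of the ribosomal protein windows and in 17.5% of all windows. The ETS-type motif CCGGAAG, searched on both strands over 300 bases, stood in 35.1% of the ribosomal protein promoters and 8.86% of all. TATAAA stood in 10.4% and 13.6%, and the E-box CACGTG, the motif of Myc, in 10.4% and 7.15%. An annotated start can lie away from the start that a macrophage uses, so a window without a run says only that these letters are not in it.

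Values are RPKM, read counts divided by transcript length and library size, which makes levels comparable between genes of unequal length. Depth was about 5.38 to 92.1 M reads per library, by an estimate from the steps between low values, lowest at 1 h in D6, UKD and D4. Of 9 macrophage markers, 8 were at 1 RPKM or more in every library, with a sum of 4263 to 7650 RPKM. The 10 neutrophil markers summed to 5.87 to 93.2 RPKM, and each list of B cell, T and NK cell, erythroid and mast, stromal and dendritic markers to at most 2.56 RPKM. The 1 h library labelled M4 stood apart from M2 and M3, with 133 RPKM of the cytokine gene Il1b against 934 and 633 RPKM in them. It lay within the range of the DMSO cultures at 1 h, from 115 RPKM in D4 to 480 RPKM in r1. The 1 h values under MPH are given with that in view. In bulk RNA, fewer cells of a type and less RNA per cell cannot be told apart. Of the 86 genes, 61 have at least 1 pseudogene named in the mouse gene tables, 299 in all, and the sources used here do not give how reads shared with these copies were counted. The level of any single ribosomal protein gene is uncertain to that extent.

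The RPKM of the genes did not lie at 1 common level. Among the 86, 81 were at 1 RPKM or more in all 30 libraries, 83 entered the tests, which asked for 1 RPKM in at least 3 libraries, and Rpl10l, Rpl3l and Rpl39l did not. The median of the 86 mean levels was 107 RPKM. The highest means were those of Rplp1, an acidic protein of the stalk that recruits elongation factors, at 433 RPKM, and Rpl32 at 335 RPKM. Rps14 and Rpl8 were also among the highest, at 306 and 295 RPKM. The lowest among the genes present in all libraries were Rpl21 at 10.7 RPKM, Rpl29 at 12.6 RPKM and Rpl15 at 13.4 RPKM, and Rpl21 and Rpl15 have 15 and 5 named pseudogenes.

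The copies known from single tissues were near the floor. Rpl10l and Rpl39l, copies used in the testis, averaged 0.0384 and 0.197 RPKM, and Rpl3l, the striated muscle copy of Rpl3, averaged 0.0757 RPKM. No value of the table was 0, so a transcript without reads still holds a small value and these means are upper limits. Rps4l averaged 1.02 RPKM. Other paralogs were present at the level of ordinary subunits: Rps27l, known as a p53 target, averaged 80.2 RPKM, Rpl22l1 29.0 RPKM, Rpl7l1 23.0 RPKM and Rpl36al, a retrogene of Rpl36a, 21.3 RPKM.

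**Figure D1:**
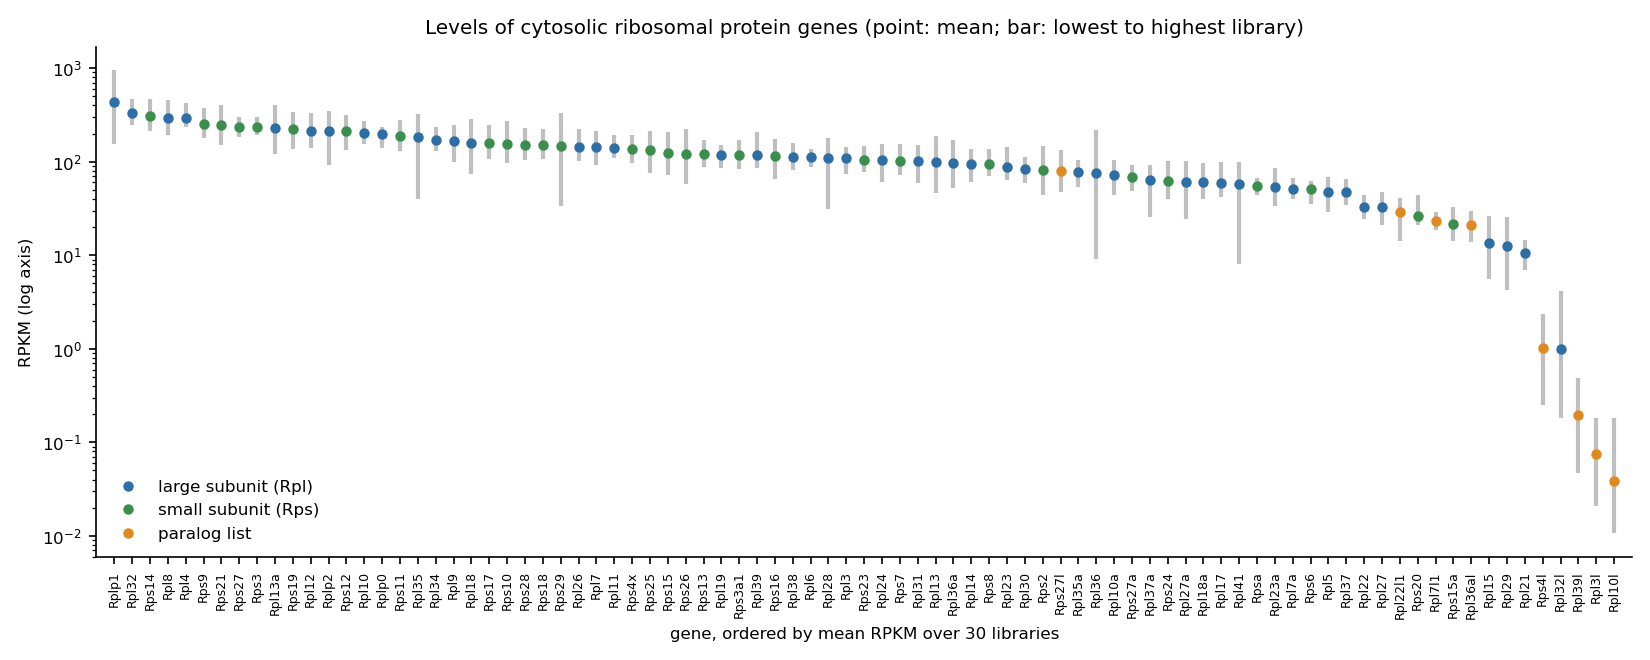
RPKM on a log axis for the ribosomal protein genes reported here, ordered by mean over 30 libraries. Points are means and bars run between the lowest and the highest library; Rplp1 leads at 433 RPKM, 5 genes lie near or below 1 RPKM, and the bars of Rpl36, Rpl41 and Rps29 are far longer than those of their neighbours.

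Most of the variation lay between cultures rather than between times of LPS within a culture. For the 81 genes at 1 RPKM or more throughout, a median of 88.5% of the sum of squares of log2(RPKM + 0.5) lay between the 10 cultures, and 63.5% for the 7842 genes of the table that met the same rule. The ratio of the highest to the lowest culture mean had a median of 1.80, while the ratio of the highest to the lowest time within a culture had a median of 1.15. Each culture had 1 treatment, so these shares and ratios include any difference between MPH and DMSO. In 29 genes the cultures differed more than 2-fold and in 6 more than 4-fold. The SD over all libraries had a median of 0.293 on the log2 scale for the 81 genes. It was 0.358 for the 10355 genes of the table that met a looser rule, 1 RPKM or more in at least 3 libraries. Of the 81 genes, 56 lay below 0.358, and the 2 sets are not matched in level. Beside that median stood a few members with very large spread.

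Rpl36, a large subunit protein gene, was the most variable, with an SD of 1.43. At 0, 1 and 2 h it stood at 15.9, 9.2 and 15.9 RPKM in M2, at 62.2, 50.4 and 65.4 RPKM in M3 and at 130.0, 127.2 and 119.8 RPKM in M4. In DMSO cultures it stood at 13.9, 10.9 and 22.4 RPKM in D3, at 64.6, 39.9 and 64.9 RPKM in D4 and at 133.4, 116.7 and 127.3 RPKM in D5. D6 ran between 110.8 and 128.8 RPKM, UKD between 186.0 and 215.5 RPKM, and r1 and r2 between 11.6 and 22.5 RPKM. UKD was 14.4-fold above M2 by culture mean, while within a culture the highest time was up to 2.05-fold above the lowest, with a median of 1.29.

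Rpl41, which encodes the shortest ribosomal protein, ranked the cultures in another order. It was at 10.2 to 11.4 RPKM in M3 and at 8.01 to 11.3 RPKM in D4. All other libraries of both treatments held 43.6 to 100.4 RPKM. Rpl28 and Rpl35, both of the large subunit, were also lowest in M3 and D4. Rpl28 was at 34.9, 31.0 and 41.7 RPKM in M3 and at 34.7, 33.8 and 47.7 RPKM in D4, with 78.2 to 180.1 RPKM elsewhere. Rpl35 was at 56.3, 40.1 and 72.4 RPKM in M3 and at 45.3, 43.7 and 78.0 RPKM in D4, with 121.6 to 322.6 RPKM elsewhere. Rpl15 was highest in these same cultures, at 26.0, 22.0 and 18.05 RPKM in M3 and 25.3, 24.4 and 18.8 RPKM in D4. So was Rpl32l, at 4.10, 2.30 and 3.71 RPKM in M3 and 3.67, 2.78 and 2.88 RPKM in D4, against at most 1.13 RPKM elsewhere.

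The stalk genes followed yet another order. Rplp1 ran from 154 RPKM in r1 to 951 RPKM in UKD at 0 h. Rplp2 lay between 91.1 and 115.4 RPKM in M2, D3, r1 and r2 and between 236.8 and 352.3 RPKM in the other 6 cultures, with 99.2% of its sum of squares between cultures. Rplp0, the stalk base and a common reference gene, kept to 141.2 to 235.0 RPKM with an SD of 0.19. Rps29, a small zinc-binding protein gene of the small subunit, had an SD of 0.99, from 33.7 RPKM in M2 at 1 h to 335.4 RPKM in D6 at 1 h. The smallest SDs among genes present throughout were those of Rpl7l1 at 0.13, Rps3 at 0.16, Rpl6 at 0.17, Rpsa at 0.18 and Rpl19 at 0.19.

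**Figure D2:**
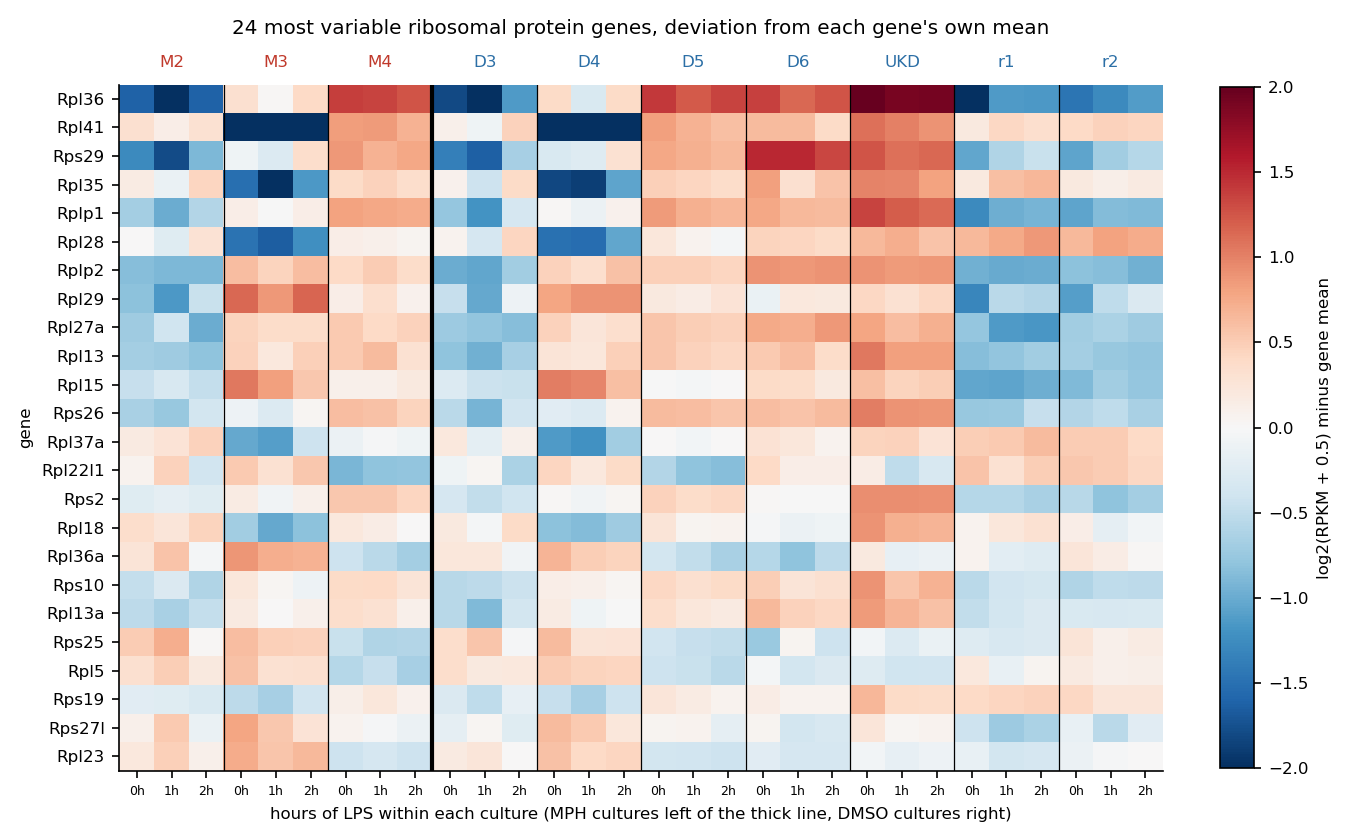
Deviation of log2(RPKM + 0.5) from each gene's own mean for the 24 most variable genes, red above and blue below the mean, with colours capped at 2. Columns are libraries, 3 times per culture, MPH cultures left of the thick line; blocks of 1 colour span the times of a culture, and M2, M3 and M4 look like D3, D4 and D5 in that order.

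The MPH cultures resembled particular DMSO cultures. The median absolute log2 difference over the 81 genes was smallest between M3 and D4 (0.07, 0.08 and 0.07 at 0, 1 and 2 h) and between M4 and D5 (0.05, 0.07 and 0.08). M2 was nearest to D3 at 0 and 2 h (0.08 and 0.09), and at 1 h it was at 0.28 to both r2 and D3. The next nearest culture was at 0.16 to 0.33 in the other 8 of these 9 cases. The labels do not state such pairs. The SD over all libraries had a Spearman correlation of 0.16 with transcript GC content and -0.24 with transcript length over 78 of the genes. Some differences between cultures moved with base composition. Across 78 ribosomal protein genes the log2 difference of D5 to D3 had a Spearman correlation of 0.53 with transcript GC content, against 0.69 across 7068 genes of the table. M4 to M2 gave 0.55 and 0.66, whereas D4 to D3 gave 0.10 and 0.07 and M3 to M2 gave 0.12 and 0.08. Genes are not independent replicates, and the part of base composition in the culture differences was not tested.

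The share of all RPKM held by the genes lay between 4.27 and 6.58%. At 0, 1 and 2 h it was 4.74, 4.85 and 4.52% in M2, 5.01, 4.41 and 4.67% in M3 and 4.87, 4.84 and 4.36% in M4. Under DMSO it was 4.67, 4.27 and 4.59% in D3, 4.83, 4.34 and 4.59% in D4, 5.04, 4.69 and 4.51% in D5 and 5.29, 4.75 and 4.72% in D6. UKD stood above all others with 6.58, 5.71 and 5.74%, r1 held 4.86, 4.59 and 4.68%, and r2 held 4.96, 4.61 and 4.54%. The share was below its own 0 h value in 2 of 3 MPH cultures at 1 h and 3 of 3 at 2 h, and in 7 of 7 DMSO cultures at both times.

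**Figure D3:**
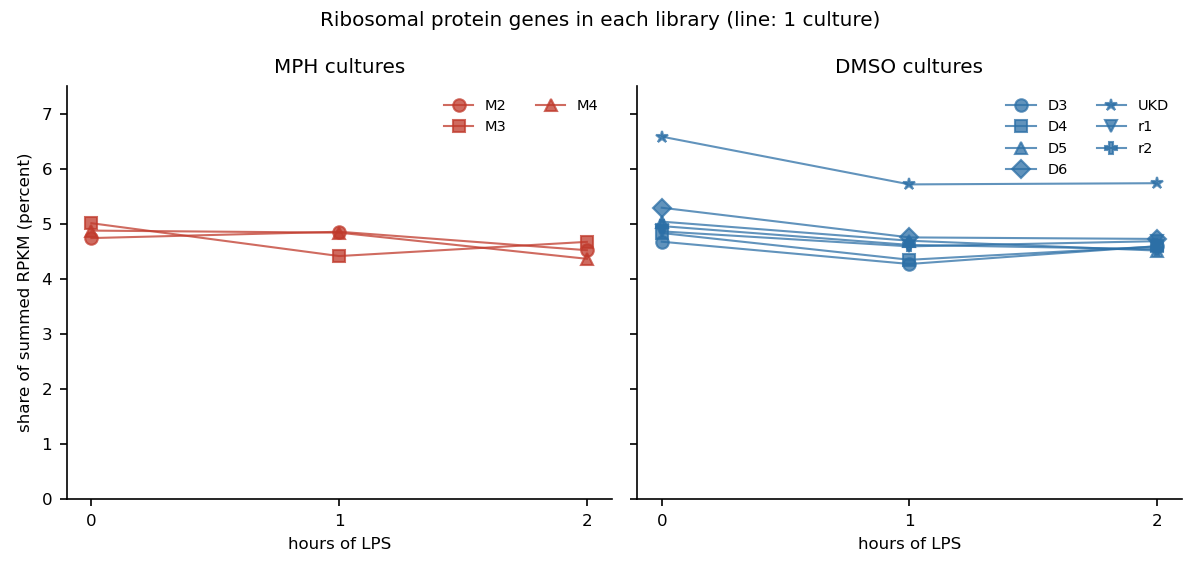
Share of summed RPKM in percent against hours of LPS, 1 line per culture, MPH cultures left and DMSO cultures right. UKD lies at 5.71 to 6.58% and the other cultures at 4.27 to 5.29%, and every DMSO line is lower at 1 h and 2 h than at 0 h.

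No ribosomal protein gene was called between MPH and DMSO, before or after LPS. The comparison used the 3 MPH cultures and D3 to D6, with limma on log2(RPKM + 0.5) and p adjusted over all 10239 genes. At 0, 1 and 2 h, 0 of 83 genes were called, where 0.869%, 0% and 0.869% of all genes were, and 0 had an unadjusted p under 0.05, where 685, 327 and 930 of all genes did. The median log2 differences were 0.01, 0.08 and 0.00, with all genes at -0.04, 0.00 and -0.02. At 1 h, 61 of 83 genes lay above 0, where 5243 of all 10239 genes did. The median of the ribosomal protein genes at 1 h was 0.02 without M2, 0.14 without M3 and 0.12 without the M4 library. The median SE was 0.24. The fit leaves out the likeness of single MPH and DMSO cultures described above, which the labels do not state, so its SEs hold the spread between cultures, and differences within such matches were not tested.

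Rplp0 had 222.2, 231.4 and 199.2 RPKM in M2, M3 and M4 at 2 h, against 228.3, 217.7, 191.9 and 181.4 RPKM in D3 to D6, and the groups overlapped. Its log2 difference was 0.09 with a 95% interval of -0.21 to 0.39 (adjusted p = 1, limma). Rps3 had 232.8, 202.4 and 191.3 RPKM with MPH, against 222.5, 197.4, 201.9 and 213.2 RPKM with DMSO, or -0.00 with an interval of -0.24 to 0.23 (adjusted p = 1, limma). For Rpl36 the interval at 2 h ran from -2.68 to 1.78, because its cultures differ so much, and this design says little about it. The smallest p at 2 h was that of Rpl36al, with a log2 difference of 0.23 (SE 0.16, adjusted p = 0.845, limma). At 0 h it was that of Rpl38 (0.17, SE 0.16) and at 1 h that of Rps14 (0.25, SE 0.13), both with adjusted p = 1 in limma.

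After LPS under DMSO the median of the genes lay below 0 on the deposited scale, nearer to 0 than that of all genes, and the number called turned on the fit. Without the culture in the fit 2 genes were called at 1 h and 4 at 2 h, where 20.3% and 54.1% of all genes were. With the culture as a block 33 and 30 were called, where 53.5% and 76.9% of all genes were. The 21 DMSO libraries were fitted with a term for the kind of culture name (D, UKD, r) over 10212 genes. At 1 h against 0 h, 2 of 83 genes were called without the block, both lower, where 20.3% of all genes were called, 5.24% higher and 15.0% lower. Their median log2 change was -0.11, against -0.15 for all genes, and 78 of 83 lay below 0, where 8098 of all 10212 genes did. At 2 h against 0 h, 4 genes were called, all lower, where 54.1% of all genes were called, 10.5% higher and 43.6% lower. The median was -0.06, against -0.25 for all genes. With median-of-ratios scaling, which moved the median of all genes at 2 h to -0.04, the median of the ribosomal protein genes was 0.16, so the direction of the family turns with the scale, and that scaling called 6 of 83 genes, all higher, where 16.7% of all genes were higher and 21.04% lower. At 1 h the same scaling moved all genes to -0.02 and the family to 0.03.

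A measure free of the library scale is the gap between the median ribosomal protein gene and the median gene in the same library. It was wider at 2 h than at 0 h in 3 of 3 MPH cultures, by 0.06 to 0.21 on the log2 scale, and in 7 of 7 DMSO cultures, by 0.00 to 0.28 with a median of 0.14. At 1 h it was wider in 2 of 3 MPH and 3 of 7 DMSO cultures. Relative to the median transcript the genes thus stood higher after 2 h of LPS in every culture, while their share of summed RPKM stood lower.

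Rps3, a small subunit protein at the mRNA entry channel, was the member with the smallest p at both times. Under DMSO its lowest, median and highest values were 217, 247 and 298 RPKM at 0 h, 207, 214 and 253 RPKM at 1 h and 197, 222 and 255 RPKM at 2 h. Every one of the 7 cultures was lower after LPS, although the groups overlapped. The log2 change was -0.17 at 1 h (SE 0.05, adjusted p = 0.0297, limma) and -0.18 at 2 h (SE 0.05, adjusted p = 0.00942, limma). With the culture block adjusted p was 0.000476 and 0.000108 in limma. With median-of-ratios scaling the change at 2 h was 0.05 and not called.

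Rpl32, a large subunit gene often used as a reference, had 311, 333 and 467 RPKM (lowest, median, highest) at 0 h, 248, 326 and 388 RPKM at 1 h and 276, 296 and 401 RPKM at 2 h. It was lower in 6 of 7 cultures at 1 h and in 7 of 7 at 2 h. Its log2 change was -0.19 at both times (SE 0.06, adjusted p = 0.0424 at 1 h and 0.0154 at 2 h, limma), and 0.03 at 2 h with the other scaling. With the culture block adjusted p was 0.0025 and 0.000873 in limma. Without the block, leaving out D6, UKD, r1 or r2 ended both 1 h calls (adjusted p of Rps3 0.0849 to 0.1089, limma), leaving out D5 ended that of Rpl32 at 1 h, and leaving out r2 ended it at 2 h. Without D3, 4 genes were called at 1 h. Rpl22 and Rpl11 were called at 2 h only.

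Rpl22 encodes a protein needed for T cell development in mice. It had 30.8, 35.8 and 43.8 RPKM at 0 h, 27.2, 33.4 and 34.9 RPKM at 1 h and 25.4, 31.5 and 33.8 RPKM at 2 h, and all 7 cultures were lower at both later times. Its log2 change at 2 h was -0.24 (SE 0.08, adjusted p = 0.0124, limma, and 5.72e-05 with the block). With median-of-ratios scaling it was -0.02 and no longer called (adjusted p = 0.897, limma). Rpl11, a partner of 5S ribosomal RNA that can bind Mdm2, had 123, 152 and 192 RPKM at 0 h, 113, 132 and 166 RPKM at 1 h and 117, 130 and 172 RPKM at 2 h. Its log2 change at 2 h was -0.15 (SE 0.06, adjusted p = 0.0414, limma, and 0.00025 with the block) and 0.07 with median-of-ratios scaling. Without the block that call held without D3 and ended without any other culture (adjusted p 0.0552 to 0.114, limma).

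**Figure D4:**
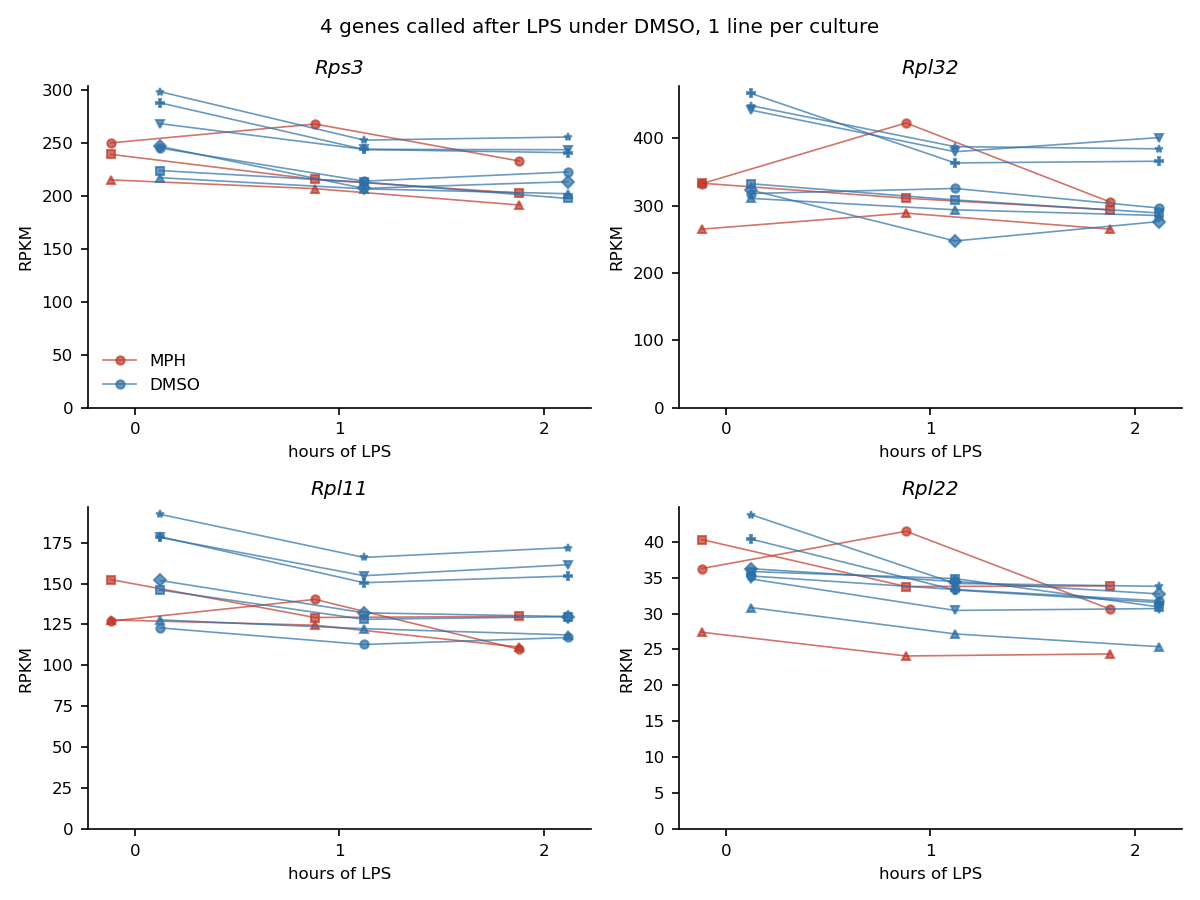
RPKM against hours of LPS for Rps3, Rpl32, Rpl11 and Rpl22, 1 line per culture, MPH (red) set left of DMSO (blue). All DMSO lines end lower at 2 h than at 0 h on the deposited scale, by less than the distance between cultures; with median-of-ratios scaling the changes at 2 h of Rps3, Rpl32, Rpl11 and Rpl22 are 0.05, 0.03, 0.07 and -0.02, and 0 of the 4 are called.

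Libraries of 1 culture deviated together, so the culture was also used as a block, which removes the differences between cultures described above. It called 33 genes lower and 0 higher at 1 h, or 39.8% of 83, where 53.5% of all genes were called, 8.71% higher and 44.8% lower. At 2 h it called 27 lower and 3 higher, where 76.9% of all genes were called, 14.8% higher and 62.0% lower. The 3 higher were Rpl24, Rps29 and Rpl29. Rpl24, which bridges the subunits, had 73.5, 94.6 and 129 RPKM (lowest, median, highest) at 0 h and 97.3, 124 and 155 RPKM at 2 h, and was higher in 6 of 7 cultures. Its log2 change at 2 h was 0.23 (SE 0.10, adjusted p = 0.055, and 0.0139 with the block, limma). Rps29 and Rpl29 changed by 0.28 and 0.34, with adjusted p = 0.0384 and 0.0202 with the block in limma. The largest fall called with the block at 2 h was that of Rpl22l1, at -0.26, followed by Rps15a at -0.25 and Rpl22 at -0.24. With the block and median-of-ratios scaling together, 51 genes were higher and 0 lower at 2 h, where 27.6% of all genes were higher and 34.5% lower. At 1 h it called 1 higher and 0 lower, against 13.4% and 14.6% of all genes. Without UKD the block called 17 of 83 genes at 1 h, or 20.5%, and 25 at 2 h, or 30.1%, where 48.6% and 74.5% of all genes were called.

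On the deposited scale 16 genes were lower in all 7 DMSO cultures at 1 h and 19 at 2 h, and 0 were higher in all 7 at either time. Over all genes 36.0% were lower and 8.25% higher in all 7 at 1 h, and 51.5% and 11.2% at 2 h. Between 1 h and 2 h, 0 of 83 genes were called (22.0% of all genes, 6.59% higher and 15.4% lower), and 2 had an unadjusted p under 0.05 in limma. The block called 3, all higher, where 49.2% of all genes were called and 13.8% were higher: Rpl24 at 0.27, Rpl7l1 at 0.15 and Rpl8 at 0.12 (adjusted p = 0.0115, 0.00595 and 0.0474, limma). The median was 0.04, against -0.09 for all genes. Rpl7l1, known in pre-ribosomes, was lower at 1 h with the block at -0.17 (adjusted p = 0.00389, limma) and changed by -0.01 over 2 h.

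**Figure D5:**
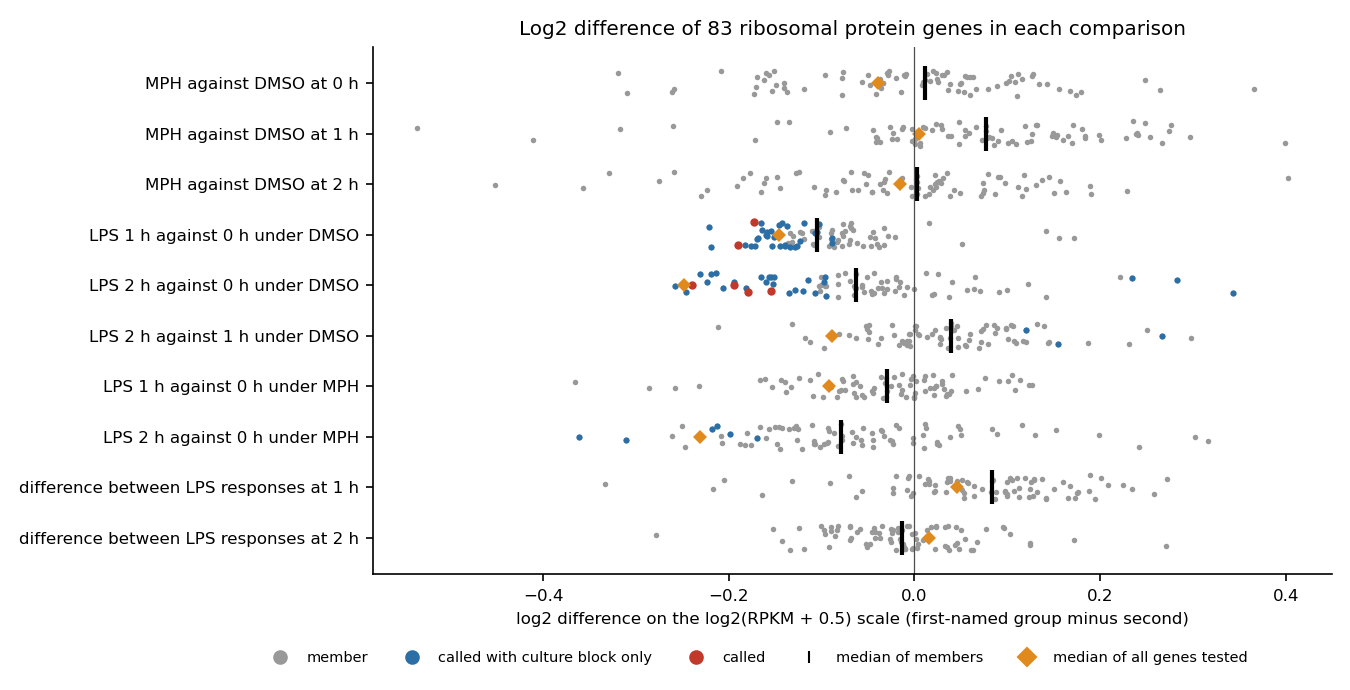
Log2 differences of the 83 tested genes in each comparison, first-named group minus second, with the median of the genes (black bar) and of all genes tested (orange diamond). Red points were called and blue points were called only with the culture as block; after LPS for 2 h the black bar lies at -0.06 and the diamond at -0.25 under DMSO, where median-of-ratios scaling gives 0.16 and -0.04.

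Under MPH the LPS response of the genes was not called in any member. At 1 h against 0 h, 0 of 83 passed, where 3.08% of all genes did, and at 2 h 0 passed, where 20.7% did, 5.97% higher and 14.7% lower. In limma 0 had an unadjusted p under 0.05 at either time. The medians were -0.03 and -0.08, with all genes at -0.09 and -0.23. At 1 h the median was -0.10 without M2 and 0.05 without M3, so these libraries decide its sign. At 2 h, 35 genes were lower and 4 higher in all 3 cultures, where 57.4% of all genes were lower and 15.8% higher. The culture block called 0 genes at 1 h, where 12.1% of all genes were called, and 6 at 2 h, where 54.5% of all genes were called, 11.7% higher and 42.8% lower. The 6, all lower, were Rps15a at -0.36, Rps27l at -0.31, Rpl22 at -0.22, Rpl11 at -0.21, Rps10 at -0.20 and Rps3 at -0.17. With median-of-ratios scaling the median at 2 h was 0.13 and the block called 6 higher and 0 lower, where 18.2% of all genes were higher and 21.7% lower.

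Rpl11 had 109.8, 129.9 and 111.2 RPKM at 2 h in M2, M3 and M4, against 127.0, 152.4 and 127.8 RPKM in them at 0 h. Rpl22 had 30.6, 33.9 and 24.4 RPKM at 2 h, against 36.3, 40.3 and 27.4 RPKM at 0 h, and both genes were lower in each culture. The test of the difference between the LPS responses, MPH minus DMSO, called 0 of 83 genes at 1 h and at 2 h, with or without the block, where 0% and 0.107% of all genes were called without it and 0.195% and 1.43% with it. Without the block 0 of the 83 had an unadjusted p under 0.05 in limma. For Rps3 that difference at 2 h was -0.01 (95% interval -0.35 to 0.32), for Rpl22 -0.02 (-0.55 to 0.50) and for Rplp0 0.03 (-0.39 to 0.46). These intervals come from the fit without the block. The median SE of this difference over the genes at 2 h was 0.34 without the block and 0.13 with it. Small differences between the responses could have been missed in both fits.

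In the pairs Rpl22 with Rpl22l1 and Rps27 with Rps27l, no member was higher after LPS past the threshold. Rpl22l1 had 20.8, 40.1 and 15.7 RPKM in M2, M3 and M4 at 2 h, against 28.8, 39.7 and 14.4 RPKM in them at 0 h. It was thus lower in M2 and higher in M3 and M4. Under DMSO its lowest, median and highest values were 18.04, 36.2 and 41.1 RPKM at 0 h and 15.0, 30.1 and 38.6 RPKM at 2 h. Like Rpl22 it was lower at 2 h in 7 of 7 DMSO cultures (-0.26, SE 0.20, adjusted p = 0.285, and 0.0111 with the block, limma). Rps27l had 70.7, 94.4 and 71.4 RPKM with MPH at 2 h, against 83.2, 134.4 and 81.6 RPKM with MPH at 0 h. Under DMSO it lay between 49.7 and 91.1 RPKM at 2 h, against 58.2 and 121 RPKM at 0 h (-0.22, SE 0.14, adjusted p = 0.186, and 0.00873 with the block, limma). These falls are on the deposited scale. With the block and median-of-ratios scaling together, 0 of the 83 ribosomal protein genes were lower at 2 h under DMSO.

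Of the members with duties of their own, Rps3 and Rpl11 were called lower after LPS, as given above. The others named here were not called on the deposited scale without the block. Rps6, the substrate of S6 kinase, had 35.6 to 56.2 RPKM with MPH and 39.9 to 58.9 RPKM with DMSO at 2 h. Its log2 change after 2 h of LPS under DMSO was -0.07 (SE 0.09, adjusted p = 0.494, limma). Rps19, mutated in Diamond-Blackfan anaemia in humans, changed by -0.06 (SE 0.14) and Rpl13a, part of a translational silencing complex in human monocytes, by -0.06 (SE 0.19). Rps27a, made as a fusion with ubiquitin, lay at 50.7 to 69.6 RPKM with MPH and 58.2 to 82.3 RPKM with DMSO at 2 h. Rpsa, also known as a laminin receptor, lay at 43.9 to 62.4 and at 44.2 to 62.8 RPKM. Fau and Rack1, which encode ribosomal proteins that the name rule misses, were not called at 2 h of LPS under DMSO, at 0.16 (SE 0.35) and -0.11 (SE 0.08).

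Other genes of ribosomes and translation were read on the deposited scale without the block, where 10.5% of all genes rose and 43.6% fell at 2 h of LPS under DMSO, with a median of -0.25. Of 78 mitochondrial ribosomal protein genes, which serve the ribosome inside mitochondria, 38 fell and 1 rose at 2 h of LPS under DMSO, with a median of -0.26. Mrpl49 fell by 0.89 (SE 0.10) and Mrps23 by 0.57 (SE 0.07). With MPH against DMSO 0 of the 78 were called at any time. Of 50 genes of ribosome biogenesis and RNA polymerase I, 10 rose and 8 fell at 2 h under DMSO, with a median of -0.02. Rrs1, needed for loading the 5S particle, rose by 1.76 (SE 0.23), Sbds, needed for late large subunit maturation, by 1.17 (SE 0.13) and Rcl1, which acts on 18S precursor RNA, by 1.03 (SE 0.11). Ubtf, an RNA polymerase I factor, fell by 0.64 (SE 0.10). Larp1 rose by 0.70 (SE 0.09) and the translation repressor gene Eif4ebp2 fell by 0.82 (SE 0.13), among 2 rises and 7 falls in 21 regulators of TOP mRNAs and mTORC1. Of 21 translation factors and other genes with TOP mRNAs, 0 rose and 5 fell, with a median of -0.11, and of 25 common reference genes 0 rose and 7 fell, with a median of -0.14. With median-of-ratios scaling the medians were 0.11 for the TOP mRNA list, 0.08 for the reference genes, 0.18 for ribosome biogenesis, 0.06 for the regulators and -0.05 for the mitochondrial list, so all but the last turned direction. With that scaling and the block, 12 rose and 3 fell of the TOP mRNA list, 11 and 3 of the reference genes, 30 and 5 of ribosome biogenesis, 7 and 5 of the regulators and 6 and 24 of the mitochondrial list. In that fit 27.6% of all genes rose and 34.5% fell. No difference between lists was tested.

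Among these lists, only ribosome biogenesis held genes called between MPH and DMSO, and the calls at 2 h turned on single cultures. At 2 h, 7 of the 50 genes were lower with MPH and 0 higher, where 0.391% of all genes were called lower and 0.479% higher. The median of the 50 was -0.34, and 46 of them lay below 0, where 5411 of all 10239 genes did. Nop2, an rRNA methyltransferase gene, differed by -0.84 (SE 0.17, adjusted p = 0.0258, limma), Gnl3, which encodes nucleostemin, by -0.82 (SE 0.17) and Nolc1, a nucleolar phosphoprotein gene, by -0.80 (SE 0.15). After 2 h of LPS under MPH 2 of the 50 rose and 13 fell, with a median of -0.27, where 5.97% of all genes rose and 14.7% fell, with a median of -0.23. The difference between the LPS responses at 2 h had a median of -0.28, but 0 genes were called in that test, 15 had an unadjusted p under 0.05 in limma, and 5, all lower, were called with the culture block, where 1.43% of all genes were called. The same comparisons of the ribosomal proteins gave medians of 0.00 for MPH against DMSO and -0.01 for the difference between responses.

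As a scale, the ribosomal protein genes gave a result between the other choices. Each library was divided by the geometric mean of the 81 of them at 1 RPKM or more in every library. All genes then split into 574 rises and 555 falls at 1 h of LPS under DMSO, against 535 and 1536 on the deposited scale and 669 and 536 with median-of-ratios scaling. At 2 h the same 3 scales gave 1130 rises and 3495 falls, 1075 and 4454, and 1701 and 2141. The median change of all genes at 2 h was -0.20 on the scale of the ribosomal protein genes.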

How the data were processed

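The authors deposited RPKM values, 1 line for each of 44401 RefSeq transcripts. FastQC, cutadapt, HISAT2 and SAMtools and the build mm9 are named, per the submitters' processing notes. The sources used here do not give the counting program or how it handled reads that map to several places. The 86 genes had 138 lines, of which the one with the highest mean was used. Members and lists were chosen with earlier results of these data known. The tests ran on log2(RPKM + 0.5), which understates changes of low genes, in limma 3.58.1 in R 4.3.3 (trend, Benjamini-Hochberg, threshold 0.05). Fits of 21 libraries each were made: D3 to D6 with M2 to M4, and all DMSO libraries with the name series as covariate. Neither held a term for each culture, so both counted the libraries of a culture as independent. No value was 0, and 99.9% of values of 8198 low transcripts were whole multiples, within 0.01, of 1 step, which gave the depth, with a median of 41.3 M reads. In 30 of 30 pairs of libraries that share a culture name in the labels, deviations from group means correlated at 0.62 to 0.91 over genes, so the culture served as a block. Named genes are the 5 highest and 5 lowest, up to 6 rises and 6 falls per comparison or the 5 smallest p, the 5 largest and 5 smallest SDs, the paralogs, and members with known duties. Other named genes were chosen after their values were seen. Some genes are not reported here, though they remain in the counts and medians. The fits were also run on simulated data with independent noise for each library and no shared culture term. That run cannot show their error rate where libraries share a culture.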

Additional observations from a re-analysis of the deposited data

Results flagged for a closer look

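Of 174 groups of 4 or 7 DMSO libraries examined (the share of the ribosomal protein genes and 28 single genes), 18 held a library far from the rest. Chance gives about 1 in 20 for independent groups of genes not picked by their values. The 28 genes include those with the largest SDs, and each culture recurs at 0, 1 and 2 h, so that rate cannot be set against the 18. The 4 cultures D3 to D6 are part of the 7, so some libraries appear under both groups, and no cause was tested. The share of summed RPKM was highest in UKD among the 7 DMSO cultures, at 6.58, 5.71 and 5.74% at 0, 1 and 2 h, where the next library held 5.29, 4.75 and 4.72%. D4 was far from the others in 5 genes. Its Rpl41 stood at 10.96 RPKM at 2 h, where the nearest of the 7 was at 59.1 RPKM and the nearest of D3 to D6 at 60.9 RPKM. Its Rpl28 stood at 34.7 RPKM at 0 h, with the nearest of the 7 at 103.6 RPKM. Rpl32l stood at 3.67, 2.78 and 2.88 RPKM in D4 at 0, 1 and 2 h, with the nearest of the 7 at 1.13, 0.756 and 0.714 RPKM and the nearest of D3 to D6 at 0.466, 0.330 and 0.289 RPKM. Among D3 to D6, D4 held the highest Rplp0 at 0 h, 222 RPKM against 189.7 RPKM, and the lowest Rpsa at 1 h, 44.0 RPKM against 50.1 RPKM. D5 had the lowest Rps4x at 0 h, 107.8 RPKM, with the nearest of the 7 at 150.7 RPKM and the nearest of D3 to D6 at 152.0 RPKM. D5 also had the lowest Rpl22 at 2 h, 25.4 RPKM against 30.7 RPKM, and UKD had the highest Rpl7l1 at 2 h, 28.7 RPKM against 24.04 RPKM.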

How the results depend on the processing

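Over all alternatives, 367 values counted as the same, 38 moved, 34 kept their direction and lost the call, and 6 changed sign. The last 2 counts cover single genes only, and a single gene was the same when it kept direction and call. A count of calls was the same within a fixed ratio. A median or share was the same within 1 SD over libraries, so a median could change sign and still count as the same or as moved. The number of genes called at 1 h of LPS under DMSO, 2, was 0 with no filter, with median-of-ratios scaling, without the name series term and without the shallow 1 h libraries of D4, D6 and UKD, and 33 with the culture as replicate block. At 2 h it was 4, against 1 with no filter, 1 without the name series term and 30 with the block. Between 1 h and 2 h it was 2 with median-of-ratios scaling and 3 with the block, and for 2 h under MPH 6 with the block. The block with median-of-ratios scaling and the block without UKD were added after the data had been seen. The first called 1, 51 and 35 genes at 1 h, at 2 h and between them under DMSO, and 6 at 2 h under MPH, where 28.0, 62.1, 46.0 and 39.9% of all genes were called, and the second called 17 and 25 at 1 h and 2 h, where 48.6 and 74.5% were. Median-of-ratios scaling, with or without the block, gave medians of 0.034 at 1 h and 0.16 at 2 h under DMSO and 0.13 at 2 h under MPH, turned Rps3, Rpl32 and Rpl11 at 2 h to 0.048, 0.033 and 0.072, and left Rpl22 at -0.015 without a call. All genes called at 1 h were 1129 when scaled to the ribosomal protein genes and 1205 with median of ratios. The share was 3.81% when every transcript line was summed. Leaving out 1 culture at a time gave 0 to 4 calls at 1 h, 3 to 5 at 2 h and 0 to 2 between them under DMSO, and 0 in all other comparisons, with a median of -0.039 to 0.030 for MPH against DMSO at 0 h. Cultures D3 and M3, and D4 and M4, share only a number: their deviations correlated at -0.63 to -0.34 in 6 pairs. A block on that number called 6, 5 and 6 genes for MPH against DMSO at 0, 1 and 2 h, or 7.23, 6.02 and 7.23% of those tested. It called 891, 161 and 803 of all genes, or 8.70, 1.57 and 7.84%. The median of the ribosomal protein genes with that block was -0.045 at 0 h. The cause of these shifts was not tested. Depth limits the genes near 1 RPKM, such as Rps4l and Rpl32l, and 3 MPH cultures limit every comparison with MPH.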
